A study of Homo sapiens with 6 samples.

Results

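The RB pocket proteins and the DREAM complex were followed in RNA-seq of HCT116 cells through 10 genes chosen by name: RB1, RBL1, RBL2, LIN9, LIN37, LIN52, LIN54, TFDP1, MYBL2 and FOXM1. These symbols took 11 of the 57905 rows of the count table, since RBL1 names 2 gene identifiers, and 10 rows, 1 per gene, passed the low-count filter that left 16565 genes for testing. HCT116 is a human colorectal carcinoma line with a wild-type p53 response. Cells received the vehicle DMSO (Nut 0h) or 10 µM Nutlin-3a, which blocks the binding of p53 by its inhibitor MDM2, for 1 h (Nut 1h) or 10 h (Nut 10h), and each group had 2 biological replicates, so that 6 libraries were compared. No other treatment or genetic change is named in the labels, so the results are those of a single cell line. The labels do not say whether the replicates were separate cultures, and p-values measure the spread between these libraries.

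The RB family holds back the cell cycle by binding E2F transcription factors. RB1 mainly binds the activator E2Fs. The relatives p107 (RBL1) and p130 (RBL2) join E2F4 or E2F5, a DP partner such as DP1 (TFDP1) and the MuvB core of LIN9, LIN37, LIN52, LIN54 and RBBP4 to form DREAM, the repressor of cell cycle genes in resting cells. In proliferating cells the same core leaves the pocket protein and binds B-MYB (MYBL2) and later FOXM1, and it then activates genes of late S, G2 and M phase. p53 induces p21 (CDKN1A), which inhibits the kinases that phosphorylate the pocket proteins, and this is the known route from p53 to DREAM. In bulk RNA, fewer cells in a cell cycle phase and less of a transcript in each cell cannot be told apart.

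The counts assigned to genes summed to between 26068076 and 35473485 per library, lowest in the Nut 1h libraries, where mitochondrial counts were also highest, with 8.15% and 8.44% of the total against 4.99% to 7.06% in the other libraries. The epithelial markers EPCAM, CDH1, KRT8, KRT18 and KRT19 had between 2354 and 127504 counts in every library. PTPRC and CD3E, which mark immune cells, had 0 to 2 counts, COL1A2, which marks fibroblasts, had 0 to 25, and the endothelial marker PECAM1 was not matched by its symbol. At Nut 1h the change of a gene moved with the GC content of its transcript, with a Pearson r of -0.69 across all tested genes, against -0.03 for Nut 10h against Nut 0h. The changes, summed levels and ratios of the members at Nut 1h are therefore given also with a GC-content offset, a smooth correction of each library for this trend. What produced the trend, or the depth and mitochondrial share of these libraries, was not tested.

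Promoter sequences were examined for 9 of the 10 genes, for which the RefSeq table (GRCh38.p14) gave 14 windows from 250 bases before to 50 bases after an annotated transcript start. 3 motifs were chosen after the data were seen and searched on both strands: an E2F core of the letters GGCGGGA, the cell cycle homology region (CHR) TTTGAA that LIN54 can bind, and the CCAAT box with the letters CCAAT. The sequences below are those of the members whose changes the results turn on, 5′ to 3′ on the strand of the gene, with the matches in capitals. MYBL2 (plus strand, chr20:43666864-43667163) held an E2F core 39 bases upstream of the start. RBL1 (minus strand, chr20:37095948-37096247) held it 210 bases upstream, on the opposite strand. LIN52 (plus strand, chr14:74084706-74085005) held it 23 bases upstream and a CCAAT box 246 bases upstream, both on the opposite strand. LIN54 (minus strand, chr4:83010774-83011073) held an E2F core 82 bases and a CHR 100 bases upstream of a start that lies 2.12 kb inside the gene. LIN9 (minus strand, chr1:226309115-226309414) held E2F cores 104 bases upstream and, on the opposite strand, 217 bases upstream, and a CHR that begins 3 bases before the start. This start lies 603 bases inside the gene, and the other LIN9 windows held none of the motifs. RBL2 (plus strand, chr16:53434221-53434520) held a CHR 24 bases downstream of the start and no E2F core in either of its windows.
MYBL2: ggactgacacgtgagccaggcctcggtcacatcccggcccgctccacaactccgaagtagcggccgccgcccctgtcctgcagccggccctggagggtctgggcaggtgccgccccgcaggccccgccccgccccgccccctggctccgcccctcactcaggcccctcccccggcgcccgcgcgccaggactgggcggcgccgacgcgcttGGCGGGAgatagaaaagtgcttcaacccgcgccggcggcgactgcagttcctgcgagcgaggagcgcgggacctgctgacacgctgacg
RBL1: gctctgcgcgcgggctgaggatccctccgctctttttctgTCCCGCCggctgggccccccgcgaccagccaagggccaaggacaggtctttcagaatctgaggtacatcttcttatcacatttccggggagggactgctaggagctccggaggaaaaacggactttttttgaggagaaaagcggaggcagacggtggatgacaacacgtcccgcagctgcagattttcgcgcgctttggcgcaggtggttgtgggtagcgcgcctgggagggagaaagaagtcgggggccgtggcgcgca
LIN52: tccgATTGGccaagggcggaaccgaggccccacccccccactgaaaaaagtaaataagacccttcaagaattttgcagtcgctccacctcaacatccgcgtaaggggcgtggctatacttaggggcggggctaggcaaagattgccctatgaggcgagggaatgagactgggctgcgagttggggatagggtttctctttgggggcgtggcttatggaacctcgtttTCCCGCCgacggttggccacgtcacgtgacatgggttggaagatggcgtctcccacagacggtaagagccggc
LIN54: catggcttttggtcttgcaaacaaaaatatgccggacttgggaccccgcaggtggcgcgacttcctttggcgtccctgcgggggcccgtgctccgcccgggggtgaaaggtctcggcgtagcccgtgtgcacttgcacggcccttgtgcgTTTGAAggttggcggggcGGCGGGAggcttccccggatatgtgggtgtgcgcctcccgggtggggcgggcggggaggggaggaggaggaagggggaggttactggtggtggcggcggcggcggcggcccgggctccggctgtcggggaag
LIN9: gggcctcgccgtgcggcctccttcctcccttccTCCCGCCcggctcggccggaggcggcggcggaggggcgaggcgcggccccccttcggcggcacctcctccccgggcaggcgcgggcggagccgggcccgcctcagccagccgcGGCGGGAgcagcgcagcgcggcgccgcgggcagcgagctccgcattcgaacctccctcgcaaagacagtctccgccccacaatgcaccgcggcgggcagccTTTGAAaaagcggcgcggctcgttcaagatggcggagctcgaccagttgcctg
RBL2: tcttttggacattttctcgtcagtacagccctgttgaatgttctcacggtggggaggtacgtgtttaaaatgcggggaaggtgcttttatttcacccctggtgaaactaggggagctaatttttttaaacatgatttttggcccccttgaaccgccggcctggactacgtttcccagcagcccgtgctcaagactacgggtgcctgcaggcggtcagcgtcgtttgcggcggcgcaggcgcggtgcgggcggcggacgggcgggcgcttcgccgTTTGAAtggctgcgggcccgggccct

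TFDP1 also held an E2F core, 176 bases upstream. LIN37 held it 162 bases upstream on the opposite strand, with a CHR 182 bases upstream. In all, 7 of the 9 members with a window held an E2F core in at least 1 window, 4 held a CHR and 3 a CCAAT box, and no 2 matches overlapped. Among tested genes with a window, 30.3% held the E2F core, 13.6% the CHR and 43.1% the CCAAT box, and among all 35116 windows of this length the shares were 15.4%, 15.2% and 34.6%. The window listed for RB1 lies 173 kb inside the gene, and FOXM1 was not matched. A match of letters is a description of the sequence and does not show that a factor binds there.

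After 10 h most of these transcripts were lower. Both MuvB activators fell to 0.316 (MYBL2) and 0.344 (FOXM1) of their Nut 0h level, RBL1 fell to 0.369, TFDP1 and the MuvB genes LIN9, LIN52 and LIN54 fell by smaller amounts, and RBL2 was the only member called higher. RB1 and LIN37 did not pass the test, and RBL2 did not pass when any library but Nut 0h replicate 2 was left out. In Nut 10h against Nut 0h, 7 of the 10 members were called lower and 1 higher by edgeR (adjusted p of 0.05 or less in the quasi-likelihood test), whereas 29.0% of all tested genes were called in either direction, 14.9% lower and 14.1% higher. The median log2 fold change was -0.74 over the members and 0.00017 over all tested genes. The Nut 10h and Nut 0h libraries did not overlap in 9 members, and in 61.4% of tested genes. With the GC-content offset the calls were again 7 lower and 1 higher, among 39.2% of tested genes, 22.7% lower and 16.5% higher. The plot of normalized counts by library shows each member at its own scale.

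**Figure D1:**
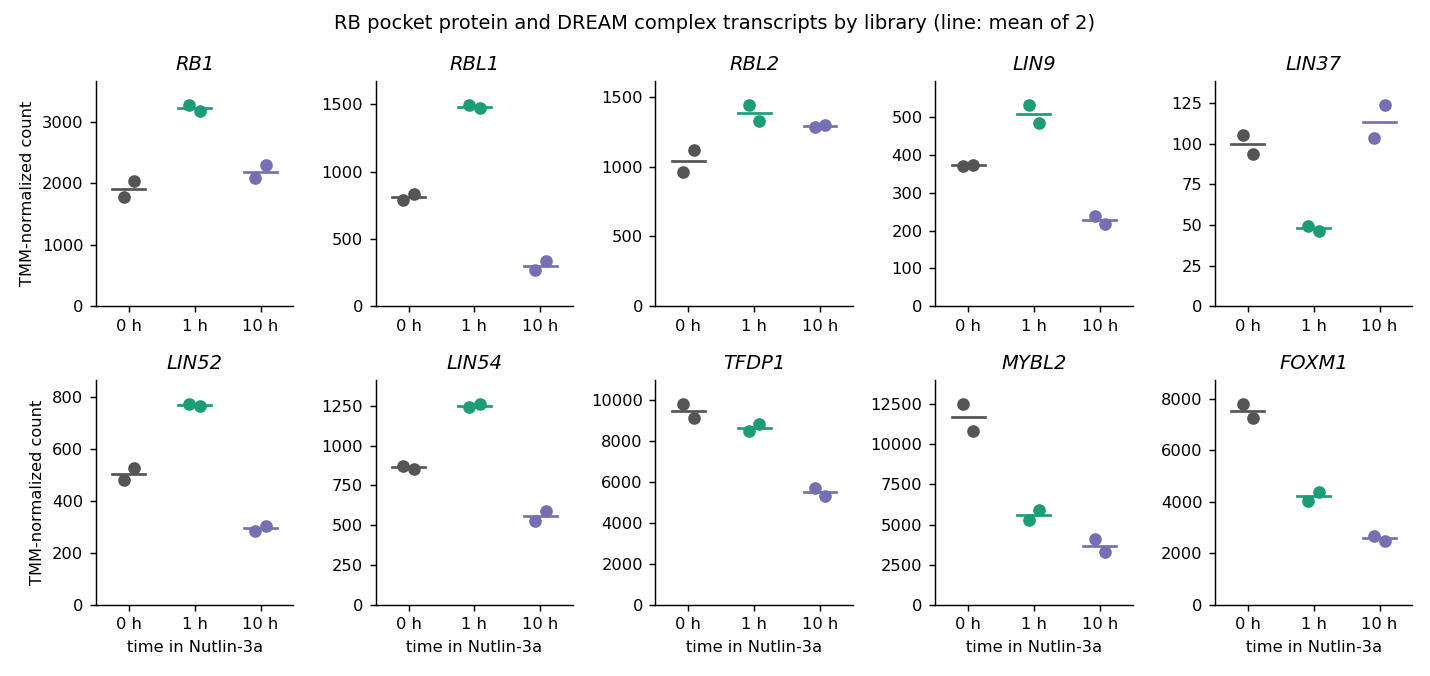
TMM-normalized counts (vertical axis, linear, from 0) of the 10 members in the 2 libraries of each group, by hours of Nutlin-3a (horizontal axis). Points are libraries and lines are group means. MYBL2, FOXM1 and TFDP1 were lowest in the Nut 10h libraries, and RBL1, LIN9, LIN52 and LIN54 were highest at Nut 1h and lowest at Nut 10h.

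At 1 h the members divided otherwise. RB1, RBL1, RBL2, LIN9, LIN52 and LIN54 were called higher and LIN37, MYBL2 and FOXM1 lower, 9 of 10 members (7 without Nut 1h replicate 1, when LIN9 and RBL2 did not pass), in a comparison where 66.9% of all tested genes were called, 34.5% higher and 32.3% lower. With the GC-content offset, under which 45.4% of tested genes were called (19.8% higher, 25.6% lower), none of the members was called higher and 3 were called lower: TFDP1, MYBL2 and FOXM1. The members called higher had transcripts of 37.1% to 43.1% GC and those called lower had 55.7% to 60.5%. The Nut 1h and Nut 0h libraries did not overlap in any of the 10 members, and did not in 84.8% of tested genes. Both comparisons with Nut 0h use the same 2 Nut 0h libraries. The plot of log2 fold changes sets the 2 comparisons side by side for each member.

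**Figure D2:**
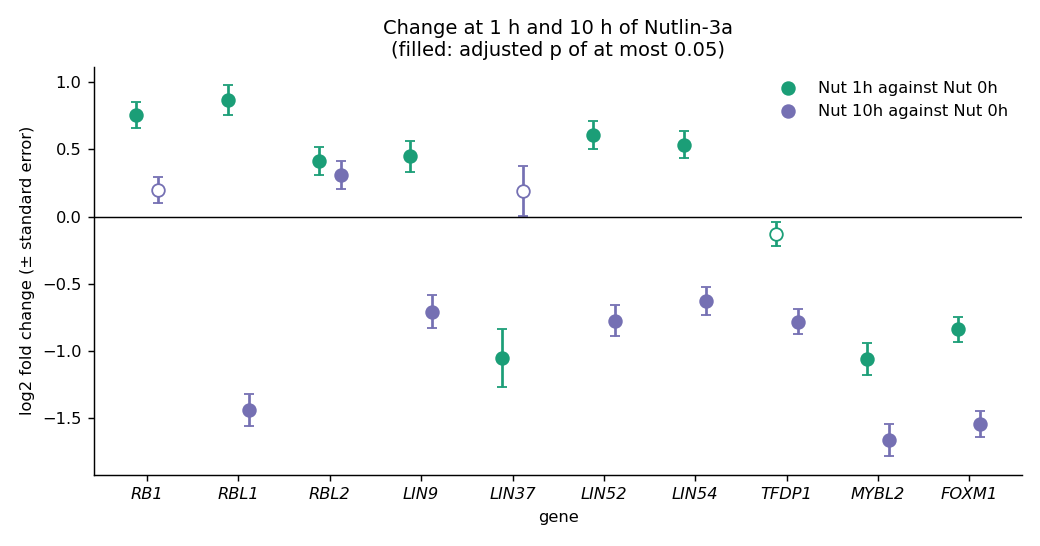
log2 fold change ± standard error (vertical axis) of each member (horizontal axis) at Nut 1h (green) and Nut 10h (purple), each against Nut 0h. Filled points passed the test (adjusted p of 0.05 or less), and RBL2 was the only member above 0 and called at both times.

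**Figure D3:**
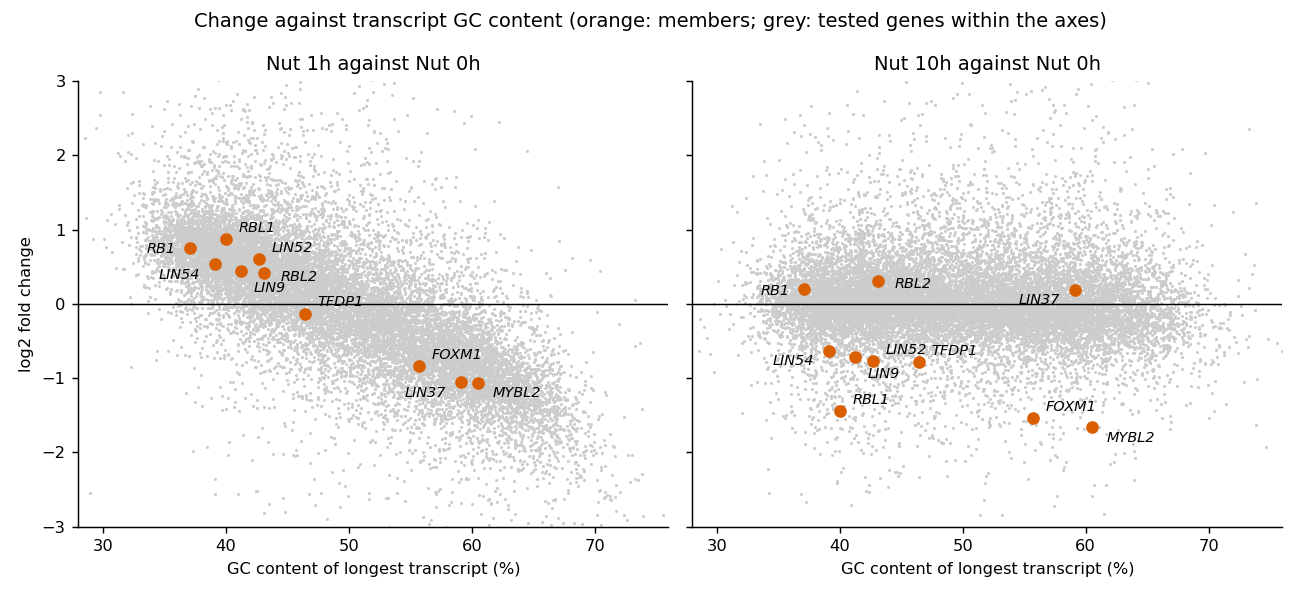
log2 fold change (vertical axis) against the GC content of the longest transcript in percent (horizontal axis), for Nut 1h (left) and Nut 10h (right) against Nut 0h. Orange points are the members and grey points the other tested genes within the axes. The members lie along the downward trend of all genes at Nut 1h, while at Nut 10h RBL1, FOXM1 and MYBL2 lie well below 0 whatever their GC content.

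The relation that the plot of change against GC content shows was close among the members at Nut 1h, with a Pearson r of -0.98 over the 10 genes, against -0.30 at Nut 10h. These are descriptions across genes of the same libraries, which are not independent replicates. With the offset, the log2 fold changes of the members at Nut 1h ranged from -0.44 to 0.17, and at Nut 10h from -1.70 to 0.28.

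The pocket proteins were RB1, RBL1 and RBL2. RB1 (ENSG00000139687, GRCh37 chr13:48877880-49173572, plus strand) encodes the retinoblastoma protein. It had 1781 and 2033 normalized counts with vehicle, 3268 and 3168 after 1 h, and 2083 and 2290 after 10 h of Nutlin-3a. Both Nut 1h libraries were above all others, and the Nut 10h libraries lay just above the Nut 0h libraries. Against vehicle, log2 fold changes of 0.75 ± 0.10 (standard error) after 1 h (adjusted p = 1.35e-05) and 0.20 ± 0.10 after 10 h (adjusted p = 0.154) were estimated. Under the GC-content offset the Nut 1h value was -0.074 (adjusted p = 0.407).

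RBL1 (ENSG00000080839, chr20:35624752-35724400, minus strand) encodes p107, the pocket protein of DREAM that is most abundant in cycling cells and is itself an E2F target. It had 790 and 834 normalized counts with vehicle, 1495 and 1471 after 1 h, and 267 and 332 after 10 h of Nutlin-3a. The 3 groups did not overlap, with the Nut 10h libraries lowest by far. The fall at Nut 10h was 2.71-fold, or -1.44 ± 0.12 on the log2 scale (adjusted p = 5.23e-07), and it was -1.47 with the GC-content offset. At Nut 1h the log2 fold change was 0.87 ± 0.11 (adjusted p = 9.85e-06), and 0.17 with the offset (adjusted p = 0.0896). From Nut 1h to Nut 10h RBL1 fell 4.95-fold (-2.31 on the log2 scale), or by -1.65 with the offset, the largest fall among the members in that comparison in both fits. The other row under this symbol (ENSG00000269846) is annotated as a lncRNA, had 5 counts in all libraries together and was not tested.

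RBL2 (ENSG00000103479, chr16:53467889-53525560, plus strand) encodes p130, the pocket protein of DREAM in resting cells. It had 961 and 1119 normalized counts with vehicle, 1440 and 1324 after 1 h, and 1285 and 1294 after 10 h of Nutlin-3a. All 4 treated libraries were above both Nut 0h libraries. Against vehicle, log2 fold changes of 0.41 ± 0.10 after 1 h (adjusted p = 0.00316) and 0.31 ± 0.10 after 10 h (adjusted p = 0.0377) were estimated. The rise at Nut 10h was 1.24-fold and near the threshold. It was 0.28 with the GC-content offset (adjusted p = 0.00967) and 0.30 in DESeq2 (adjusted p = 0.0580). Of the 6 libraries, it stayed past the threshold only when Nut 0h replicate 2 was left out, and it was 0.20 without Nut 0h replicate 1 (adjusted p = 0.307). The Nut 1h value was 0.35 without Nut 1h replicate 1 (adjusted p = 0.0553) and -0.11 with the offset (adjusted p = 0.265). On the opposite strand, exons of AKTIP cover 7.5% of the exonic bases of RBL2 and those of ENSG00000279344 cover 8.9%. AKTIP had 2955 counts in all libraries against 7393 for RBL2, ENSG00000279344 was not matched in the count table, and the sources used here do not say whether counting used the strand.

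Levels of different genes were compared as RPKM, which scales the counts by exon length at a common library size. The summed level of the 3 pocket protein transcripts was 17.0 ± 1.42 RPKM (SD, n = 2) with vehicle, 27.9 ± 0.724 after 1 h and 16.6 ± 0.948 after 10 h. The sums of the Nut 10h libraries overlapped those of the Nut 0h libraries. With the GC-content offset applied to the levels, an alternative chosen after the data were seen and set so that each gene keeps its mean log level at Nut 0h, the sum after 1 h was 16.8 ± 0.167 RPKM against 17.0 ± 0.445 with vehicle, so that the higher sum at Nut 1h was not seen. Within this sum, RBL1 took 24.4% ± 1.11 with vehicle, 27.1% ± 0.398 after 1 h and 9.13% ± 0.893 after 10 h (SD, n = 2). RBL2 took 22.4% and 23.2% with vehicle, 19.0% and 18.1% after 1 h, and 30.1% and 27.9% after 10 h, and RB1 took the rest. The RBL2 to RBL1 ratio was 0.892 and 0.986 with vehicle, 0.707 and 0.661 after 1 h, and 3.54 and 2.86 after 10 h. So the RBL2 transcript level per length was above that of RBL1 in the Nut 10h libraries and below it in the others. With the offset the shares at Nut 1h were 27.8% for RBL1 and 21.4% for RBL2, and the ratio was 0.804 and 0.736. Lengths of the longest transcript in place of all exons, also chosen after the data were seen, put the ratio at 1.09 and 1.21 with vehicle, 0.866 and 0.809 after 1 h, and 4.33 and 3.50 after 10 h, so which of the 2 transcripts is higher at Nut 0h depends on the length used. These shares and ratios are descriptions without a test.

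**Figure D4:**
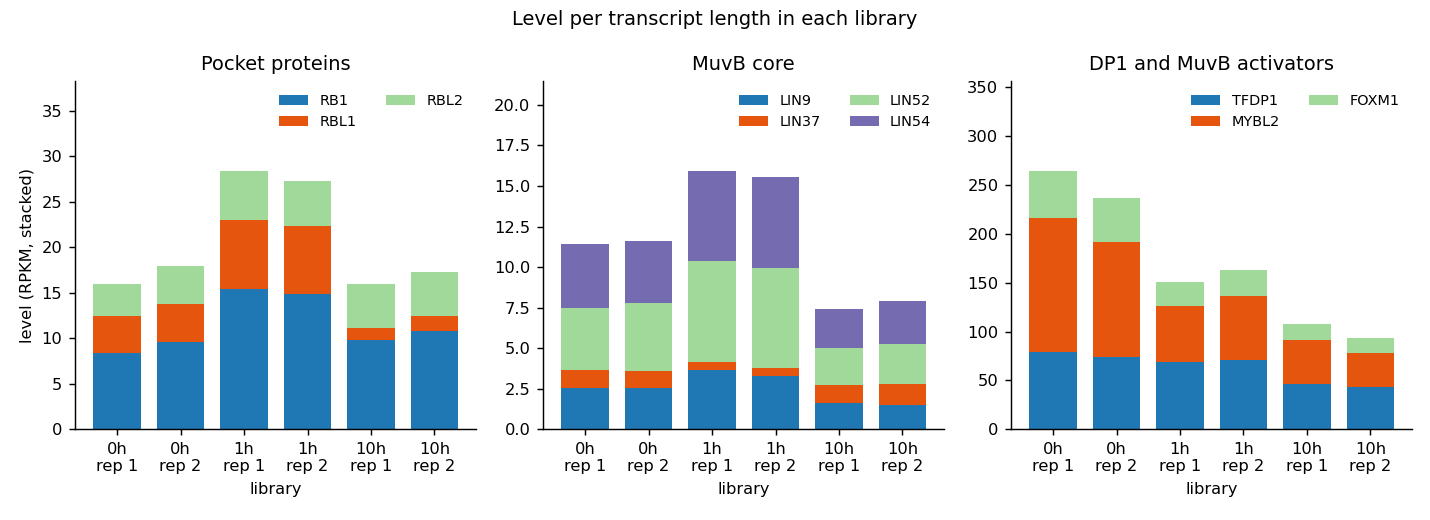
Stacked levels in RPKM (vertical axes, linear, from 0) of the pocket proteins, the MuvB core and TFDP1 with the MuvB activators in each of the 6 libraries (horizontal axes). The RBL1 segment was smallest in the Nut 10h libraries, whose pocket protein transcript totals overlapped those at Nut 0h. No GC-content offset is applied in this plot.

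The MuvB core was represented by LIN9, LIN37, LIN52 and LIN54. The stacked levels show that LIN52 and LIN54 made up most of the summed core level, which was 11.5 ± 0.144 RPKM (SD, n = 2) with vehicle, 15.7 ± 0.235 after 1 h and 7.64 ± 0.357 after 10 h. With the offset the sum after 1 h was 10.6 ± 0.0996 RPKM against 11.5 ± 0.354 with vehicle, which turns the direction at Nut 1h, and after 10 h it was 7.47 ± 0.0561. LIN9 (ENSG00000183814, chr1:226418850-226497570, minus strand), a scaffold of the core, had 371 and 375 normalized counts with vehicle, 532 and 485 after 1 h, and 240 and 217 after 10 h of Nutlin-3a. The 3 groups did not overlap. After 10 h it was lower by a log2 fold change of -0.71 ± 0.12 (adjusted p = 0.000584). At Nut 1h it was 0.45 ± 0.12 (adjusted p = 0.00351), but 0.38 without Nut 1h replicate 1 (adjusted p = 0.0597) and -0.19 with the GC-content offset (adjusted p = 0.165).

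LIN52 (ENSG00000205659, chr14:74551659-74668196, plus strand) links the core to the pocket protein when DYRK1A phosphorylates it. It had 481 and 530 normalized counts with vehicle, 776 and 765 after 1 h, and 286 and 305 after 10 h of Nutlin-3a. LIN54 (ENSG00000189308, chr4:83831126-83934079, minus strand), the subunit that binds DNA at CHR elements, had 873 and 854 normalized counts with vehicle, 1240 and 1262 after 1 h, and 526 and 591 after 10 h of Nutlin-3a. In both genes every Nut 1h library was above, and every Nut 10h library below, the Nut 0h libraries. At Nut 10h the log2 fold change was -0.77 ± 0.11 for LIN52 (adjusted p = 0.000138) and -0.63 ± 0.10 for LIN54 (adjusted p = 0.000385). At Nut 1h it was 0.61 ± 0.11 for LIN52 (adjusted p = 0.000177) and 0.54 ± 0.10 for LIN54 (adjusted p = 0.000300). Under the offset these Nut 1h values were 0.05 (adjusted p = 0.647) and -0.20 (adjusted p = 0.0530).

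LIN37 (ENSG00000267796, chr19:36239262-36245420, plus strand) is the core subunit needed for repression by DREAM and dispensable for activation with B-MYB. It had the fewest counts of the members, with 37 to 133 per library. Its normalized counts were 105 and 93.9 with vehicle, 49.2 and 46.6 after 1 h, and 103 and 124 after 10 h. The Nut 1h libraries were lowest, and the Nut 10h and Nut 0h libraries overlapped. Against vehicle, log2 fold changes of -1.05 ± 0.21 after 1 h (adjusted p = 0.000605) and 0.19 ± 0.19 after 10 h (adjusted p = 0.485) were estimated. The Nut 1h value was -0.31 with the GC-content offset (adjusted p = 0.269). LIN37 took 9.30% ± 0.869 of the summed core level with vehicle, 3.27% ± 0.0764 after 1 h and 15.9% ± 1.27 after 10 h (SD, n = 2). With the offset the share was 9.28% ± 0.0294, 8.09% ± 0.565 and 16.0% ± 3.09 in the same order, so that most of the drop at Nut 1h was not seen. A protein-coding gene on the same strand (ENSG00000188223) covers 26.7% of its exonic bases and had 1 count in all libraries. An antisense lncRNA (ENSG00000267439) covers 41.8% of its exonic bases and had 78 counts in all libraries, against 535 for LIN37, and the strand setting of the counting is not given in the sources used here.

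TFDP1 (ENSG00000198176, chr13:114239036-114295788, plus strand) encodes DP1, the partner through which E2F proteins bind DNA both with RB and in DREAM. It had 9806 and 9115 normalized counts with vehicle, 8468 and 8829 after 1 h, and 5720 and 5292 after 10 h of Nutlin-3a. The Nut 10h libraries were below all others, and the Nut 1h libraries were just below the Nut 0h libraries. Against vehicle, log2 fold changes of -0.78 ± 0.09 after 10 h (adjusted p = 2.15e-05) and -0.13 ± 0.09 after 1 h (adjusted p = 0.228) were estimated. With the GC-content offset TFDP1 was called lower at Nut 1h too, at -0.44 (adjusted p = 0.000298).

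MYBL2 and FOXM1 encode the transcription factors that turn MuvB into an activator. MYBL2 (ENSG00000101057, chr20:42295659-42345135, plus strand) had 12529 and 10842 normalized counts with vehicle, 5285 and 5929 after 1 h, and 4111 and 3277 after 10 h of Nutlin-3a. FOXM1 (ENSG00000111206, chr12:2966846-2986340, minus strand) had 7813 and 7246 normalized counts with vehicle, 4049 and 4381 after 1 h, and 2687 and 2487 after 10 h of Nutlin-3a. In both genes the order of the groups was Nut 0h, Nut 1h, Nut 10h from high to low, with no overlap. At Nut 10h MYBL2 was 3.16-fold lower, or -1.66 ± 0.12 on the log2 scale (adjusted p = 1.51e-07), and FOXM1 was 2.91-fold lower, at -1.54 ± 0.10 (adjusted p = 3.30e-08). These were the largest falls among the members in that comparison, and with the GC-content offset they were -1.70 and -1.56.

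At Nut 1h the log2 fold change was -1.06 ± 0.12 for MYBL2 (adjusted p = 3.59e-06) and -0.84 ± 0.09 for FOXM1 (adjusted p = 3.65e-06). With the offset both remained lower, by less: MYBL2 at -0.20 (adjusted p = 0.0467) and FOXM1 at -0.35 (adjusted p = 0.000526). With the offset and the replicate number in the model, MYBL2 did not pass (adjusted p = 0.0720). Exons of ITFG2 on the opposite strand cover 15.9% of the exonic bases of FOXM1. ITFG2 had 2285 counts in all libraries against 28770 for FOXM1.

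Per length, MYBL2 was the most abundant member at Nut 0h with 127.5 RPKM, followed by TFDP1 with 76.5, FOXM1 with 46.4 and RB1 with 8.98. RBL1, LIN52, RBL2 and LIN54 lay between 3.87 and 4.13 RPKM, and neighbours in that order overlapped between replicates. LIN9 followed with 2.54 and LIN37 with 1.07. At Nut 1h TFDP1 led with 70.0 RPKM, ahead of MYBL2 with 61.2 and without overlap, but with the GC-content offset the order turned, with 111.2 RPKM for MYBL2 and 56.5 for TFDP1. At Nut 10h TFDP1 with 44.5 and MYBL2 with 40.3 overlapped, FOXM1 had 15.9, RB1 10.3 and RBL2 4.82, and RBL1 had dropped to 1.52, where it overlapped LIN9 at 1.56. Per length of the longest transcript RBL2 was above RBL1 at Nut 0h without overlap. In the same measure at Nut 10h TFDP1 was above MYBL2 and RBL1 below LIN9, both without overlap. LIN37 with 2.10 RPKM was then above LIN9 with 1.94, with overlap between replicates, and above RBL1 with 1.60. The MYBL2 to RBL2 ratio was 38.1 and 28.3 with vehicle, 10.7 and 13.1 after 1 h, and 9.35 and 7.40 after 10 h. With the offset it was 35.4 and 30.4, then 29.1 and 33.1, then 8.46 and 8.17, so that the Nut 1h and Nut 0h libraries overlapped and the Nut 10h libraries were below both. The FOXM1 to RBL2 ratio was 13.4 and 10.7 with vehicle, 4.64 and 5.46 after 1 h, and 3.45 and 3.17 after 10 h, and with the offset 12.7 and 11.3, then 9.60 and 10.8, then 3.23 and 3.43, where the 3 groups did not overlap. The MYBL2 to FOXM1 ratio had group means of 2.75, 2.36 and 2.52 in the same order, and 2.75, 3.05 and 2.503 with the offset.

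Between Nut 1h and Nut 10h, 8 members were lower, 1 was higher (LIN37) and RBL2 did not pass the test (log2 fold change of -0.10 ± 0.10, adjusted p = 0.403), where 67.9% of all tested genes were called, 33.7% lower and 34.2% higher. The falls ranged from -0.56 for RB1 to -2.31 for RBL1. The 2 groups did not overlap in any member, and did not in 85.0% of tested genes. Under the offset, which called 57.9% of tested genes (29.2% higher, 28.6% lower), 7 members were lower, and RB1 (0.24, adjusted p = 0.00688) and RBL2 (0.39, adjusted p = 0.000413) were called higher instead. LIN37 then did not pass (0.47, adjusted p = 0.0744).

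The other subunits and the DREAM kinase were a list of 5 genes: RBBP4, TFDP2, E2F4, E2F5 and DYRK1A. At Nut 10h TFDP2, which encodes the related partner DP2, was higher (log2 fold change of 0.58, adjusted p = 0.000645), and RBBP4 (-0.38, adjusted p = 0.00675) and E2F4 (-0.30, adjusted p = 0.0369) were lower. E2F4 did not pass with upper-quartile factors, with only the 2 groups compared, or when any of 4 libraries was left out. Its value was -0.20 without Nut 10h replicate 2 (adjusted p = 0.257), -0.21 without Nut 0h replicate 1 (adjusted p = 0.256), and -0.30 without Nut 1h replicate 1 (adjusted p = 0.0727) or replicate 2 (adjusted p = 0.0733). The list's median was -0.12. Of all tested genes 14.1% were higher and 14.9% lower in that comparison. At Nut 1h 4 of the 5 were called higher and 1, E2F4, lower, where 34.5% of all tested genes were higher and 32.3% lower. Of these calls, that of E2F5 (0.37, adjusted p = 0.0376) was lost under RLE factors, DESeq2 or no filter, and without Nut 0h replicate 1 (0.19, adjusted p = 0.340), Nut 1h replicate 1 (0.33, adjusted p = 0.173) or Nut 1h replicate 2 (0.41, adjusted p = 0.0862). A correction for transcript length left 3 of the 5 called, without E2F5 and TFDP2, where 11069 of all 16565 tested genes were called. Under the GC-content offset 1 was higher and 2 lower, E2F5 among the latter (-0.40, adjusted p = 0.0131), against 19.8% and 25.6% of all tested genes. Of 6 further E2F genes, 3 were lower at Nut 10h: E2F2 (-2.71), E2F1 (-2.44) and E2F8 (-2.31). E2F7, a repressor that p53 induces, was higher by 0.33, at the very edge of the threshold (adjusted p = 0.0499734), and did not pass under several alternatives, among them DESeq2 (adjusted p = 0.0635) and the fits without Nut 0h replicate 1 (0.19, adjusted p = 0.361), Nut 10h replicate 2 (0.25, adjusted p = 0.173) or either Nut 1h library (adjusted p = 0.0793 for both). With the offset E2F3 and E2F6 were lower as well, so that 5 of the 6 were, against 22.7% of all tested genes. At Nut 1h 4 of the 6 were called higher and E2F1 lower, and with the offset 3 were higher and none lower, to be read against the same shares of all tested genes at Nut 1h.

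Genes known as targets of these complexes fell together at Nut 10h. Of 22 genes of the G1/S transition, typical RB and E2F targets, 21 were lower and none higher, with a median log2 fold change of -1.51. The largest falls were those of CCNE2 (-2.55), a cyclin of the G1/S kinase, and CDC25A (-2.41), the phosphatase that activates it. PCNA, also a direct p53 target, had 0.04 and did not pass. Whether p53 acted on it here was not tested. Of 24 genes of G2 and mitosis, typical targets of DREAM and of MuvB with B-MYB and FOXM1, all 24 were lower, between -2.10 (PLK1, a mitotic kinase) and -0.76, with a median of -1.64. CCNA2, the S and G2 cyclin, fell by 2.01 on the log2 scale. Against these, 14.9% of all tested genes were lower. The members themselves, with a median of -0.74, lay between these lists and all tested genes. MYBL2, FOXM1, RBL1, TFDP1 and LIN52 lay within the range of the G2 and mitosis list, TFDP1 (-0.78) and LIN52 (-0.77) near its smallest fall.

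**Figure D5:**
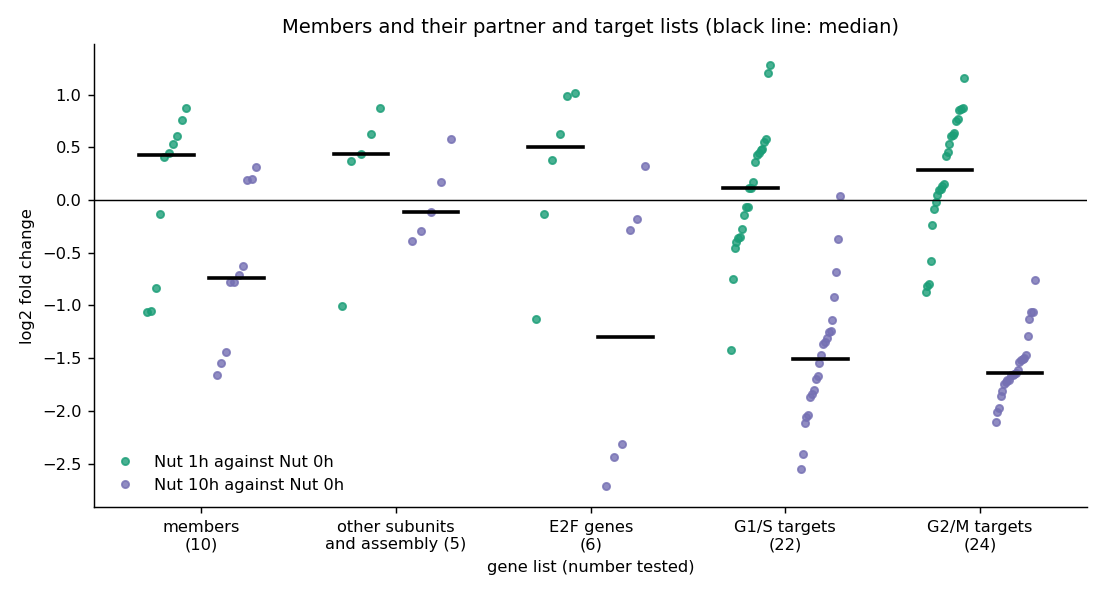
log2 fold change (vertical axis) of each tested gene of the members and 4 related lists (horizontal axis, number tested in brackets) at Nut 1h (green) and Nut 10h (purple) against Nut 0h. Black lines are medians. At Nut 10h all 24 G2/M genes and 21 of 22 G1/S genes were called lower.

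At Nut 1h both target lists had genes called in each direction, as the plot of the lists shows, among 34.5% of all tested genes called higher and 32.3% lower. Of the 22 G1/S genes 9 were higher and 7 lower (40.9% and 31.8%), with a median of 0.11, and these shares are near those of all tested genes. Of the 24 G2 and mitosis genes 12 were higher and 5 lower (50% and 20.8%), with a median of 0.28. Under the offset, with 19.8% of all tested genes called higher and 25.6% lower, the G1/S list had 9 higher and 4 lower (40.9% and 18.2%), with a median of 0.10. UHRF1 of this list had no GC content and entered uncorrected. The G2 and mitosis list then had 2 higher and 6 lower (8.33% and 25%), and its median changed sign to -0.11. A correction for transcript length instead moved the medians to 0.23 for the G1/S list and 0.43 for the G2 and mitosis list. It called 16 and 21 of their genes in either direction, among 11069 of all 16565 tested genes. In the RefSeq windows, the E2F core was found in 13 of 18 G1/S genes and 4 of 20 G2 and mitosis genes, the CHR in 1 of 18 and 13 of 20, and the CCAAT box in 13 of 18 and 18 of 20. Of the members with a window 7 of 9 held the E2F core, 4 of 9 the CHR and 3 of 9 the CCAAT box, and differences between these shares were not tested. LIN9, LIN37 and LIN54 held an E2F core and a CHR in the same window.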

How the data were processed

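6 RNA-seq libraries were analysed, 2 for each of the groups Nut 0h, Nut 1h and Nut 10h. Groups come from the sample titles. Per the study's methods, the authors trimmed reads with Trim Galore (0.6.6), mapped them to GRCh37.p13 with STAR (2.7.0f) and counted them per gene with featureCounts (Subread 2.0.0). The deposited values are raw counts for 57905 genes, without normalization, and every row names a gene. Strand setting and handling of multimapping reads are not given in the sources used here. A deposited table of the authors' own comparisons (fold changes, p-values) was used only to pair identifiers with symbols.

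Totals ranged from 26068076 to 35473485 counts per library. A single model of all 6 libraries with condition as its term (3 residual degrees of freedom) was fitted to filtered counts (filterByExpr) with TMM factors, using the quasi-likelihood test of edgeR 4.0.16 with limma 3.58.1 under R 4.3.3. Benjamini-Hochberg adjustment ran over all 16565 tested genes, with calls at 0.05 or less. Normalized counts are counts brought to the mean effective (TMM) library size. RPKM used the union of annotated exons (GENCODE, GRCh37). The GC-content offset removes, library by library, a loess trend (span 0.4) against the GC content of the longest transcript. Genes for which no GC content was found stayed uncorrected. Alternatives were RLE and upper-quartile scaling, no filter, a filter of 1 CPM in 2 libraries, DESeq2 1.42.0, a replicate block, GC and length offsets, 2 groups only, an adjusted p of 0.01, and leaving out each library. Levels in RPKM were also given with the GC trend removed, keeping each gene's mean log level at Nut 0h, and with longest-transcript lengths, both chosen after seeing the data. Of these fits, that of Nut 10h against Nut 0h, without and with the GC-content offset, was tested on simulated counts with known changes.

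All 10 members were named in every comparison. For the lists, the genes named were the 2 called genes with the largest rise and fall at Nut 10h. PCNA, E2F3, E2F5, E2F6 and E2F8 were named with their values after these were seen. UHRF1 was named for its missing GC content. Members, lists and tests were chosen with earlier results of these data known. Promoter sequences were taken from RefSeq (GRCh38.p14). Their coordinates are not on the build of the counts.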

Additional observations from a re-analysis of the deposited data

Results flagged for a closer look

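For 9 of the 10 members the change at Nut 10h differed from the change at Nut 1h in the direct test of Nut 10h against Nut 1h (edgeR's quasi-likelihood test, 2 libraries per group), where 67.9% of all tested genes differed. Since both changes use the same Nut 0h libraries, the difference is the log2 fold change between these groups. It was -2.31 for RBL1, -1.38 for LIN52, -1.16 for LIN9 and -1.16 for LIN54. These 4 genes were called higher at Nut 1h and lower at Nut 10h, each against Nut 0h. With the GC-content offset none of the members was called higher at Nut 1h against Nut 0h. The difference was -0.56 for RB1, which was called at Nut 1h and did not pass at Nut 10h. It was -0.65 for TFDP1, -0.60 for MYBL2 and -0.70 for FOXM1, which were lower at Nut 10h than at Nut 1h. LIN37 went the other way, with 1.24. With the GC-content offset the differences were -1.65 for RBL1, -0.86 for LIN52, -0.55 for LIN9, -0.46 for LIN54, -0.41 for TFDP1, -1.502 for MYBL2, -1.22 for FOXM1, 0.24 for RB1 and 0.47 for LIN37, of which the last did not pass. So the differences of MYBL2 and FOXM1 were larger with the offset, those of RBL1, LIN52, LIN9, LIN54 and TFDP1 were smaller, and RB1 changed sign. What produced the relation with GC content at Nut 1h was not tested.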

How the results depend on the processing

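For Nut 10h against Nut 0h, no member changed direction under any of 16 alternatives, and of 160 checks 151 kept their side of the threshold. The other 9 were all of RBL2, and 7 or 8 members were called throughout. Over all genes 4810 were called, and 2980 at an adjusted p of at most 0.01. Leaving out each library gave 3490 to 4881 genes and 7 to 8 members. For Nut 1h against Nut 0h, 9 members and 11077 genes were called, against 3 members and 7518 genes with the GC-content offset and 2 members and 7247 genes with the offset and the replicate block. The offset, without and with the block, reversed RB1 (-0.074 and -0.073), RBL2 (-0.11 and -0.12), LIN9 (-0.19 and -0.19) and LIN54 (-0.20 and -0.20), none of them called. Leaving out each library gave 8971 to 11307 genes and 7 to 9 members, with RBL2 and LIN9 lost without Nut 1h replicate 1. For Nut 10h against Nut 1h, 9 members were called in each alternative, though the offset called RBL2 and not LIN37, and, without and with the block, it reversed RB1 (0.24 and 0.24) and RBL2 (0.39 and 0.40). Leaving out each library gave 9211 to 11449 genes and 9 members. The cause of these reversals was not tested.

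Across genes, the difference between replicates 1 and 2 correlated at 0.45 between Nut 0h and Nut 10h. It correlated at -0.31 between Nut 0h and Nut 1h, and at -0.28 between Nut 1h and Nut 10h. So the replicate numbers went with a shared difference in Nut 0h and Nut 10h, but with an opposite one in Nut 1h. Whether they name paired cultures is not given in the labels. With the replicate block alone 10979, 4893 and 11189 genes and 9, 8 and 9 members were called at Nut 1h, at Nut 10h and between them. The 2 libraries per group and, for LIN37, counts of 37 to 133 limit the precision.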

Other observations

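The kinases that phosphorylate the pocket proteins, and their inhibitors, were a list of 10 genes, of which 9 were tested and CCND2 was not, with 0 to 31 counts per library. At Nut 10h against Nut 0h 2 were higher and 6 lower, where 14.1% of all tested genes were higher and 14.9% lower. CDKN1A, which encodes p21, had 10629 and 9286 normalized counts with vehicle, 9837 and 10726 after 1 h, and 145531 and 139682 after 10 h of Nutlin-3a. It was 14.3-fold higher at Nut 10h (edgeR's quasi-likelihood test, adjusted p = 1.03e-10), and after 1 h it overlapped the vehicle libraries (log2 fold change of 0.05, adjusted p = 0.704). With the GC-content offset CDKN1A, whose transcript has 58% GC, was called higher at Nut 1h too, 1.63-fold (0.71 on the log2 scale, adjusted p = 3.10e-06). CCND1, the D-type cyclin that activates CDK4 and CDK6, was higher at Nut 10h against Nut 0h by 0.45 on the log2 scale (adjusted p = 0.00185). In the same comparison CDK2, the kinase that works with cyclins E and A, was 2.01-fold lower. CDKN2C, an inhibitor of CDK4 and CDK6, was 4.73-fold lower there.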
